A study of Homo sapiens with 2 samples.

Results

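The nuclear genes for the subunits of oxidative phosphorylation were followed in 1 library of live and 1 library of processed Stage 6 cells. Members were taken by gene name: NDUFA, NDUFB, NDUFC, NDUFS and NDUFV names followed by a digit, NDUFAB1, SDHA to SDHD, names beginning with UQCR, CYC1, names beginning with COX4 to COX8, and names beginning with ATP5. Of 178 matching names, 88 were dropped as pseudogenes and 3 for a hyphen, which left 87 of the 55797 genes in the files. By name, 39 belonged to complex I, 4 to complex II, 9 to complex III, 17 to complex IV and 18 to complex V, and they lay on 22 chromosomes.

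Both libraries came from the human embryonic stem cell line H1 after stepwise differentiation to Stage 6, where the culture is mixed and holds some insulin-expressing cells. Whether they were taken from the same culture is not stated. Live cells gave RNA directly by the RNeasy procedure, without fixation or sorting, whereas processed cells went through MARIS: they were fixed in 4% PFA, permeabilized, stained with antibody, passed through the sorter with every cell collected, and their RNA was isolated with a modified RecoverAll kit. The labels give no other agent or genotype, and fixation, staining, sorting and the kit cannot be told apart. With 1 library per condition, no difference below has a replicate check and none was tested, and in such bulk RNA fewer cells of a type and less RNA per cell cannot be told apart.

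Oxidative phosphorylation takes place in the inner mitochondrial membrane. Complex I (NADH dehydrogenase) and complex II (succinate dehydrogenase) pass electrons to ubiquinone, complex III passes them to cytochrome c, complex IV (cytochrome c oxidase) passes them to oxygen, and complex V (ATP synthase) uses the resulting proton gradient to make ATP. Most subunits are encoded in the nucleus and imported, a few are encoded by mitochondrial DNA, and complex II is nuclear throughout. In beta cells the ATP made this way closes potassium channels and so couples glucose to insulin release.

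Values are FPKM, fragment numbers scaled to transcript length and to the size of the library, so levels of different genes are per length and can be set side by side within a library. Brackets after a value give the lower and upper bound in the authors' files, which describe precision within that library and whose level is not stated. Differences are log2((processed FPKM + 1) / (live FPKM + 1)). The summed FPKM was 510713 in live and 499398 in processed cells, and the steps between low values put the FPKM of 1 fragment in processed cells at 1.07 times that in live cells. The marker genes INS (98.3 FPKM live, 121 FPKM processed), GCG (135 and 131 FPKM) and PDX1 (66.5 and 72.1 FPKM) were present in both, as were the hepatic marker AFP (460 and 550 FPKM) and the mesenchymal marker COL1A1 (31.9 and 22.7 FPKM), whereas the macrophage markers CD14, CD68 and PTPRC were below 1 FPKM.

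Nearly all of the machinery was expressed. Of the 87 genes, 81 reached 1 FPKM in either library, and 79 reached 10 FPKM in live cells and 79 in processed cells, compared with 45.7% and 43.98% of the 17326 genes in the files that reached 1 FPKM in either. Together the 87 genes held 1.27% of summed FPKM in each library. The 6 genes below 1 FPKM in both were COX6A2, COX6B2, COX7A1, COX7B2, COX8C and ATP5L2. The first 5 are tissue-restricted forms of complex IV subunits, and ATP5L2 is a copy of ATP5L.

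In both libraries the median level was lowest for complex II and next lowest for complex I. In live cells the median of the genes above 1 FPKM was 97.8 FPKM for complex IV, 95.2 FPKM for complex V, 69.7 FPKM for complex III, 45.1 FPKM for complex I and 27.4 FPKM for complex II. In processed cells the order of these medians was the same, at 100.3, 91.0, 67.3, 43.5 and 30.4 FPKM. The place of complex IV at the top depends on leaving out its silent paralogues: over all names its median was 79.7 FPKM in the live and 67.6 FPKM in the processed library, below complex V at 91.2 and 86.3 FPKM and, in processed cells, close to complex III at 67.3 FPKM. The ranges overlapped widely, from 12.2 to 150.2 FPKM for complex I and from 7.60 to 343 FPKM for complex V in live cells. The highest gene in both libraries was COX7C, a small complex IV subunit, at 375 FPKM (365 to 385) in live and 391.7 FPKM (381 to 403) in processed cells, followed by ATP5B, the catalytic beta subunit of ATP synthase, at 343 FPKM (339 to 346) and 325 FPKM (321 to 330). Genes with longer annotated protein-coding transcripts tended to have lower FPKM. Between live FPKM and the median length of those transcripts, Pearson's r and Spearman's rho were both -0.33 across 80 genes, which share a library and are not independent replicates. FPKM is itself divided by transcript length, so level and length are not independent measures.

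**Figure D1:**
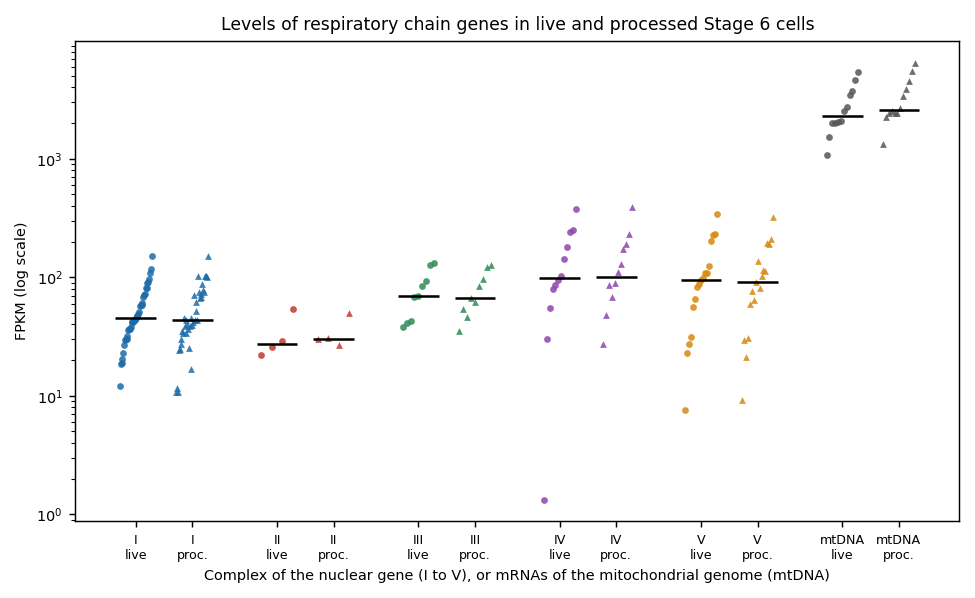
FPKM on a log axis for each nuclear gene with at least 1 FPKM, by complex and library, beside 12 mRNAs of the mitochondrial genome (mtDNA), without MT-ATP8. Circles are live and triangles processed cells, bars are medians over the genes, and COX4I2, listed at 0 in processed cells, is counted in the median and not drawn there. Among the nuclear genes drawn, the medians are highest for complex IV, at 97.8 and 100.3 FPKM, and lowest for complex II, at 27.4 and 30.4 FPKM. Over all nuclear names complex V is the highest.

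Across the 81 genes above 1 FPKM the median log2 ratio was -0.056, beside -0.092 over all 17326 genes. A ratio above 0 was found for 35 genes and one below 0 for 46, beside 7232 and 10094 of all genes. Most ratios were small. A total of 64 of 81 (79.0%) lay within 0.32 of 0 on the log2 scale, whereas 47.8% of all genes and 59.5% of the 8515 genes with at least 10 FPKM did. The median absolute log2 ratio was 0.136 for the 81 genes, 0.254 for genes with at least 10 FPKM and 0.341 for all genes. These sets differ in level, with live medians of 58.5, 21.4 and 8.46 FPKM in that order. No set matched for level was compared, so the smaller scatter cannot be told apart from the higher level. Order was largely kept between the libraries, with Pearson's r of 0.966 on log10(FPKM + 1) and Spearman's rho of 0.962 across the 81 genes.

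Counted by size, 7 of the 81 genes had a log2 ratio above 0.32 (background over all genes 21.9%) and 10 had one below -0.32 (background 30.2%). Past 1.5-fold, 2 were higher (background 13.1%, or 7.35% of genes with at least 10 FPKM) and 5 lower (background 15.6%, or 9.24%). Past 2-fold, 0 were higher (background 6.57%) and 2 lower (background 6.19%). The bounds did not overlap for 21 genes higher in processed cells (background 28.1%) and 28 genes lower (background 43.7%), and overlapped for 32. These directions depend on the scale. Processed FPKM was also divided by 0.932, the median ratio over genes with at least 1 FPKM in both libraries. This moves each of the 81 genes above 0 FPKM in processed cells up by about 0.10. It turns the sign of 16 of the 81 genes, the lowest of them at -0.096 before, and makes the median 0.044. The medians of complexes I, III and V, given below, also turn above 0, those of complexes I and III also when both libraries are given the same sum of FPKM. The counts past 0.32 then become 15 higher and 5 lower, those past 1.5-fold 3 and 4, and those with separate bounds 33 and 14. The backgrounds above are unscaled and cannot be set beside these counts, and no share over all genes is given under this scaling.

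**Figure D2:**
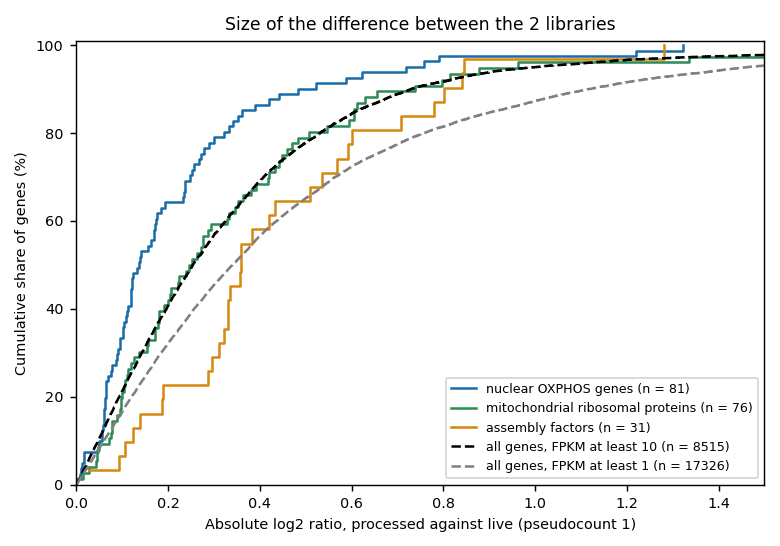
Cumulative share of genes (%) against the absolute log2 ratio for the 81 nuclear oxidative phosphorylation genes, 76 mitochondrial ribosomal protein genes, 31 assembly factors and all genes with at least 1 or at least 10 FPKM. At an absolute log2 ratio of 0.32 the curve of the 81 genes has reached 79.0%, against 59.2% for mitochondrial ribosomal proteins and 32.3% for assembly factors.

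Complex I takes NADH at the tip of its peripheral arm and passes electrons along iron-sulfur clusters to ubiquinone. All 39 names reached 1 FPKM, with 19 ratios above 0 and 20 below, and a median of -0.009. The most abundant was NDUFS5, an accessory subunit, at 150.2 FPKM (145 to 155) in live and 151 FPKM (147 to 155) in processed cells, and its bounds overlapped. The lowest was NDUFA4L2, a hypoxia-linked paralogue of NDUFA4 that is not a complex I subunit, at 12.2 FPKM (11.4 to 13.0) in live and 10.7 FPKM (10.2 to 11.1) in processed cells.

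Apart from COX4I2, described below, the genes beyond 1.5-fold were all complex I names. Of the 39 names, 4 (10.3%) were lower and 2 (5.13%) higher, close to or below the 9.24% and 7.35% of genes with at least 10 FPKM. NDUFS4 (chromosome 5, 52856463 to 52979168), an accessory subunit of the peripheral arm needed for assembly of a stable complex, was at 43.3 FPKM (41.3 to 45.4) in live and 16.7 FPKM (15.5 to 17.9) in processed cells. Its log2 ratio was -1.32, and from the bounds between -1.49 and -1.16. NDUFS1 (chromosome 2, 206986149 to 207024327), the largest core subunit and a carrier of iron-sulfur clusters, was at 18.9 FPKM (17.9 to 19.8) and 10.7 FPKM (10.3 to 11.2), a log2 ratio of -0.76. NDUFA6 (chromosome 22, 42481529 to 42486959), an accessory subunit, was at 42.1 FPKM (40.1 to 44.1) and 25.2 FPKM (23.98 to 26.4), a log2 ratio of -0.72. NDUFV3 (chromosome 21, 44299754 to 44329783), an accessory subunit bound near the NADH site, was at 18.5 FPKM (17.5 to 19.5) and 11.6 FPKM (10.8 to 12.5), a log2 ratio of -0.62 that falls inside 1.5-fold after scaling by the median ratio. In each of these 4 genes the bounds of the libraries were separate, with live cells higher.

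All 4 belong to the N module, the part of the peripheral arm around NADH oxidation. The module was chosen for description after these values had been seen, so its counts support nothing. Of its 10 genes, 7 had a ratio below 0 and 3 above, with a median of -0.15. Besides the 4 named, NDUFV1, which binds NADH and flavin, was at 49.0 and 43.5 FPKM, NDUFV2 at 57.4 and 52.2 FPKM and NDUFS6 at 42.1 and 38.7 FPKM in live and processed cells. NDUFA7 was at 29.9 and 35.3 FPKM, NDUFA2 at 30.4 and 33.5 FPKM and NDUFA12 at 38.05 and 40.6 FPKM. Members of the module thus lay on both sides of 0. Elsewhere in the peripheral arm, NDUFS8, an iron-sulfur core subunit, was at 50.4 and 61.8 FPKM, NDUFS7 at 26.6 and 30.1 FPKM, NDUFS3 at 43.6 and 45.5 FPKM and NDUFA5 at 35.9 and 38.7 FPKM. NDUFA9 went the other way, at 45.1 and 39.6 FPKM with overlapping bounds. Not every gene of the arm is listed, so these values set up no contrast with the module.

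On the other side, NDUFA3 (chromosome 19, 54606036 to 54614898), an accessory membrane subunit, was at 58.9 FPKM (55.1 to 62.6) in live and 103 FPKM (97.3 to 108) in processed cells, a log2 ratio of 0.79. NDUFA4 (chromosome 7, 10971578 to 10979883) was at 47.1 FPKM (44.8 to 49.3) and 71.3 FPKM (67.4 to 75.1), a log2 ratio of 0.59. Named for complex I, NDUFA4 is now counted as a subunit of complex IV. These 2 genes were the ones past 1.5-fold on the higher side, and their bounds were separate. NDUFB3, at 31.8 and 44.9 FPKM, came next in complex I with a log2 ratio of 0.48, and NDUFAB1, the mitochondrial acyl carrier protein, had -0.42, at 58.5 and 43.5 FPKM. The core subunits, which carry the catalytic steps, had a median of -0.14 over 7 genes and the accessory subunits -0.004 over 30.

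**Figure D3:**
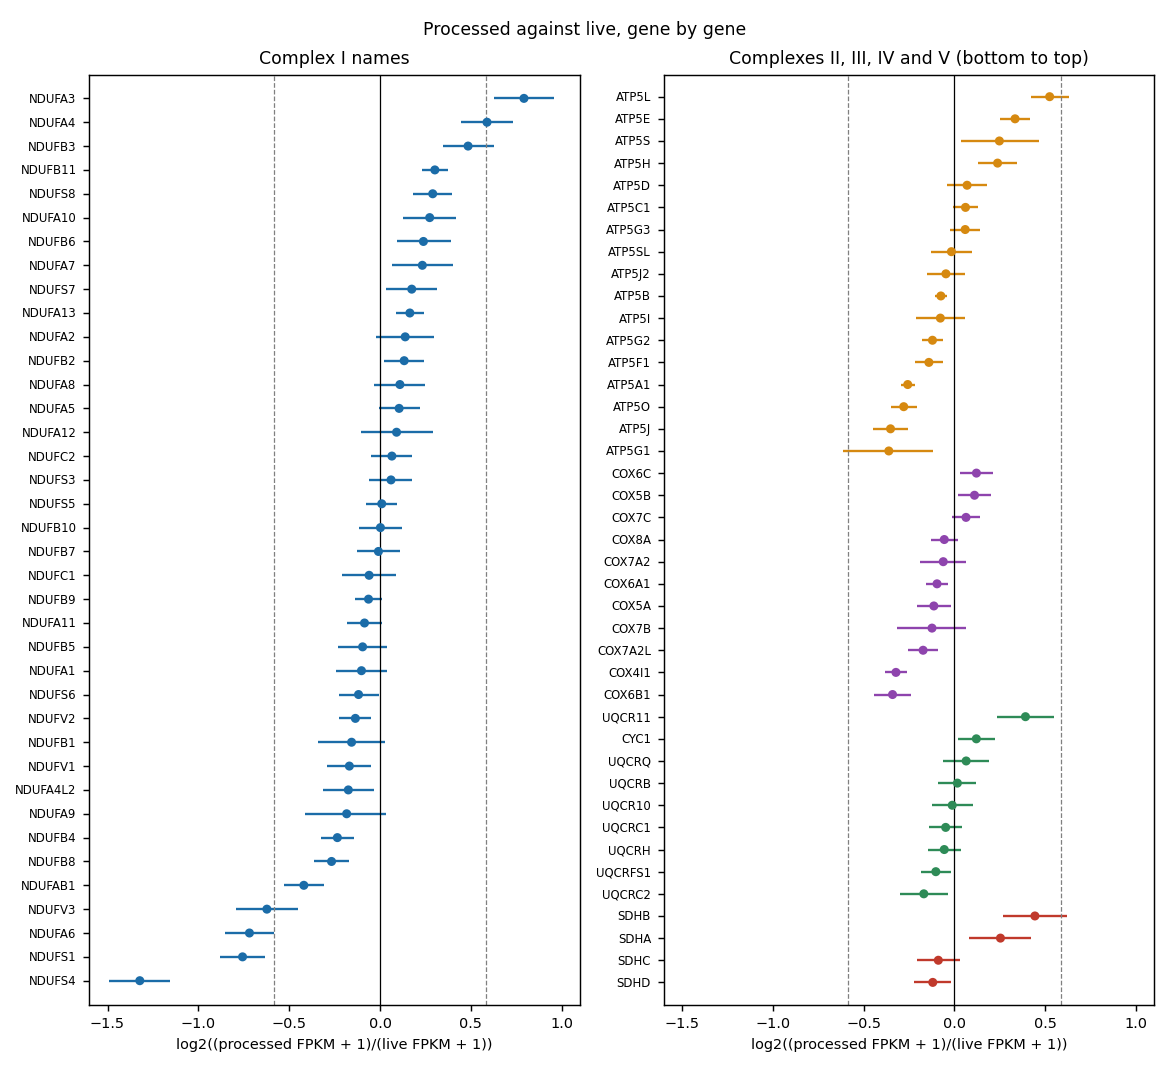
Log2 ratio of processed to live FPKM (pseudocount 1) for each gene above 1 FPKM, complex I names on the left and complexes II (red), III (green), IV (purple) and V (orange) on the right, without COX4I2, which is listed at 0 in processed cells, and without 1 complex I gene that is not reported. Points are ratios, lines span what the FPKM bounds allow, and dashed lines mark 1.5-fold; NDUFS4 at -1.32 stands furthest from 0 and 2 genes lie beyond the right dashed line.

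Complex II oxidizes succinate and is also an enzyme of the citric acid cycle. Of its 4 genes, 2 had ratios above 0 and 2 below. SDHA, the flavoprotein with the succinate site, was at 25.6 FPKM (24.2 to 27.0) in live and 30.7 FPKM (28.5 to 32.8) in processed cells, and SDHB, the iron-sulfur subunit, was at 21.9 FPKM (20.5 to 23.3) and 30.1 FPKM (28.3 to 32.0). Their log2 ratios were 0.25 and 0.44, with separate bounds. Of the membrane anchors, SDHC was at 53.7 FPKM (51.3 to 56.0) and 50.4 FPKM (48.4 to 52.4) with overlapping bounds, a log2 ratio of -0.09, and SDHD at 29.2 FPKM (28.05 to 30.3) and 26.8 FPKM (25.8 to 27.7), a log2 ratio of -0.12. After scaling by the median ratio SDHC had a log2 ratio of 0.01 and SDHD one of -0.02.

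In complex III, all 9 genes lay within 1.5-fold and 8 within 0.32 on the log2 scale. UQCRH, the hinge protein, was the highest at 132 FPKM (128 to 136) and 127 FPKM (122 to 131), and UQCRFS1, the Rieske iron-sulfur protein, the lowest at 38.2 FPKM (37.1 to 39.3) and 35.5 FPKM (34.4 to 36.6). CYC1 (cytochrome c1) was at 42.7 FPKM (41.3 to 44.1) and 46.5 FPKM (44.6 to 48.3), a log2 ratio of 0.12 with separate bounds. UQCR11, a small subunit, had the largest ratio at 0.39, at 41.0 FPKM (38.5 to 43.6) and 54.1 FPKM (51.5 to 56.7), and UQCRC2, a core protein, the lowest at -0.17, at 69.7 FPKM (65.8 to 73.7) and 61.9 FPKM (59.7 to 64.2). UQCRC1 (126 and 122 FPKM), UQCRB (84.0 and 84.9 FPKM), UQCRQ (92.8 and 97.1 FPKM) and UQCR10 (67.9 and 67.3 FPKM) had overlapping bounds.

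In complex IV, several subunits exist in a widespread form and in forms known from heart, skeletal muscle, lung or testis. The widespread forms carried almost all of the expression in these cells. COX4I1 was at 241 FPKM (236 to 246) in live and 193 FPKM (188 to 197) in processed cells, and its lung-enriched paralogue COX4I2 at 1.33 FPKM (0.761 to 1.90) in live cells and listed at 0 in processed cells, so that COX4I1 made up 99.5% of the pair in live cells. COX6A1 was at 248 FPKM (244 to 253) and 232 FPKM (227 to 237), whereas the muscle form COX6A2 was listed at 0 in both libraries. COX7A2 was at 94.0 FPKM (90.4 to 97.5) and 90.0 FPKM (85.3 to 94.6), whereas the muscle form COX7A1 was at 0.0674 FPKM (0.0280 to 0.107) in live cells and listed at 0 in processed cells. COX6B1 was at 85.8 FPKM (83.2 to 88.5) and 67.6 FPKM (64.8 to 70.3), and the testis form COX6B2 at 0.547 FPKM (0.406 to 0.687) in live cells and listed at 0 in processed cells. COX8A was at 179 FPKM (175 to 184) and 173 FPKM (168 to 177), and COX8C was listed at 0 in live cells and at 0.581 FPKM (0.419 to 0.743) in processed cells. COX7B was at 30.1 FPKM (28.2 to 31.9) and 27.5 FPKM (25.5 to 29.6), and COX7B2 was listed at 0 in both. The muscle genes MYH6 and MYH7 stood below 0.3 FPKM in both libraries, TNNT2 at 2.76 and 5.40 FPKM and ACTC1 at 28.4 and 19.3 FPKM, the last 2 with separate bounds and opposite directions.

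Of the 12 complex IV names above 1 FPKM, 11 lay within 1.5-fold. COX4I1, which had a log2 ratio of -0.32, and COX6B1, at -0.34, were the widespread subunits furthest below 0, both with separate bounds. COX6C (101.6 and 111 FPKM, log2 ratio 0.12) and COX5B (79.7 and 86.1 FPKM, 0.11) were above 0 with separate bounds, whereas COX7C overlapped. COX5A was at 141 and 131 FPKM. COX7A2L, which is related to COX7A2 and helps join complexes III and IV into supercomplexes, was at 54.6 FPKM (53.1 to 56.1) and 48.3 FPKM (46.8 to 49.8). A total of 9 had a ratio below 0, with a median of -0.10, and after scaling by the median ratio the sign of COX6A1, COX7A2 and COX8A turns. COX4I2 is counted past 2-fold beside NDUFS4, and this rests on a listed value of 0 and the pseudocount, so no fold is given.

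Complex V has a catalytic head, a stalk and a membrane ring of c subunits. In the head, ATP5A1 (alpha) was at 227 FPKM (224 to 230) in live and 190 FPKM (187 to 192) in processed cells, a log2 ratio of -0.26, and ATP5B (beta) at 343 and 325 FPKM, -0.07, both with separate bounds, of which ATP5B turns above 0 after scaling by the median ratio. ATP5C1 (gamma) was at 87.2 and 91.0 FPKM and ATP5D (delta) at 56.5 and 59.4 FPKM, with overlapping bounds. Of the 4 genes of the peripheral stalk, ATP5J (82.1 and 64.1 FPKM, log2 ratio -0.35), ATP5O (99.3 and 81.6 FPKM, -0.28) and ATP5F1 (124 and 112 FPKM, -0.14) were lower in processed cells, and ATP5H (65.0 and 76.8 FPKM, 0.24) was higher, all with separate bounds. The largest difference of the complex was that of ATP5L, subunit g in the membrane part, at 95.2 FPKM (91.5 to 98.9) and 137 FPKM (133 to 142), a log2 ratio of 0.52 that passes 1.5-fold after scaling by the median ratio. ATP5I and ATP5J2, also small membrane subunits, were at 109 and 103 FPKM and at 202 and 196 FPKM, with overlapping bounds. ATP5S, a name taken by the rule that is not a core part of the enzyme, was the lowest of the complex above 1 FPKM, at 7.60 FPKM (6.91 to 8.30) and 9.21 FPKM (8.52 to 9.90), and ATP5SL was at 31.1 and 30.7 FPKM. The median log2 ratio was -0.012 in complex III and -0.047 in complex V.

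The c ring is encoded by ATP5G1, ATP5G2 and ATP5G3, which differ in their import signals and give the same mature subunit. ATP5G2 was at 230.0 FPKM (225 to 235) in live and 211 FPKM (207 to 216) in processed cells, ATP5G3 at 109.7 FPKM (107 to 113) and 114 FPKM (111 to 118), and ATP5G1 at 27.6 FPKM (25.7 to 29.5) and 21.3 FPKM (19.0 to 23.5). Their order was the same in both libraries and no bounds met between neighbours in it. ATP5G2 made up 62.6% of the summed FPKM of the family in live and 60.9% in processed cells, ATP5G3 29.9% and 32.9%, and ATP5G1 7.51% and 6.13%. ATP5G1 had the smallest log2 ratio of complex V, at -0.36.

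Processed pseudogenes of these genes can share reads with them. Of the 88 dropped pseudogene names, 77 were below 1 FPKM in both libraries, and 10 outside the Y chromosome reached it. The highest were COX7CP1, at 193 FPKM (177 to 209) in live and 221 FPKM (204 to 238) in processed cells, and ATP5EP2, at 44.3 FPKM (41.4 to 47.2) and 71.5 FPKM (67.8 to 75.3). ATP5E, the epsilon subunit of the catalytic head, was itself at 23.1 FPKM (22.5 to 23.7) and 29.4 FPKM (28.5 to 30.3), the lowest of the head and below its pseudogene in both libraries. Its longest annotated transcript has 3610 nt, whereas the coding sequence has 156 nt.

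The aligned coding and pseudogene sequences are shown for these 2 pairs because they make plain how little separates gene and copy. They come from the GENCODE release 44 transcripts on GRCh37, capitals mark the bases that differ, and each is given 5′ to 3′ on its own strand. ATP5E lies on the minus strand of chromosome 20 (57600522 to 57607437) and ATP5EP2 on the plus strand of chromosome 13 (28519343 to 28519727 in the files, with 156 nt in the release used here), with 6 mismatches in 156 bases. COX7C lies on the plus strand of chromosome 5 (85913721 to 85916779) and COX7CP1 on the minus strand of chromosome 13 (49761615 to 49761806), with 4 mismatches in 190 aligned bases.
ATP5E: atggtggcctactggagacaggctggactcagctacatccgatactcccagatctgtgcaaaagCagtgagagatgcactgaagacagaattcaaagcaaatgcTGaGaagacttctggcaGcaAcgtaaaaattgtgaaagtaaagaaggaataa
ATP5EP2: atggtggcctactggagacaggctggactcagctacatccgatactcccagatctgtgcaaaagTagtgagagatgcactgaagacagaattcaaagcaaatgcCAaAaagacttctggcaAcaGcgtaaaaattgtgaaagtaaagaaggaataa
COX7C: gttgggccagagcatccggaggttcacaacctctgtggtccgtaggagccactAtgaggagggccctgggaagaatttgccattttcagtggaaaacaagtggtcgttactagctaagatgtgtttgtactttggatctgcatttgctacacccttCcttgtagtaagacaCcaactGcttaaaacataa
COX7CP1: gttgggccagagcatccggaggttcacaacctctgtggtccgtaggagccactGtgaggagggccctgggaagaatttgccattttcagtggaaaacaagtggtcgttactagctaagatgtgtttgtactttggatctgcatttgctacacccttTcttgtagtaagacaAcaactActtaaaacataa

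Reads were 80 nt long. Of the 80-base windows of the annotated copy, 20.4% were found without mismatch in a COX7C transcript for COX7CP1 and 0% in an ATP5E transcript for ATP5EP2. The share was 52.2% for COX6A1P2 (25.02 and 25.4 FPKM), a copy of COX6A1, and 43.3% for UQCRFS1P1 (11.5 and 6.58 FPKM), a copy of UQCRFS1. Adding each copy to its gene moved the log2 ratio of ATP5E from 0.33 to 0.57, with summed FPKM of 67.4 in live and 100.9 in processed cells, and that of UQCRFS1 from -0.10 to -0.24, while COX7C went from 0.06 to 0.11. The sum turned the sign for NDUFB1, from -0.16 to 0.07, since NDUFB1P1 was listed at 0 in live cells and at 7.24 FPKM (3.61 to 10.9) in processed cells. FPKM is per length and the copies are shorter than the median coding transcripts of their genes, so these sums are not sums of fragments. NDUFB1P1 has 180 nt in the release used here, close to the 170 nt subtracted for the step of 1 fragment. Its FPKM can therefore rest on few fragments. The paper states that FPKM was estimated by maximum likelihood. How fragments that fit both gene and copy were treated is not stated, and the part of this treatment in these values was not tested.

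**Figure D4:**
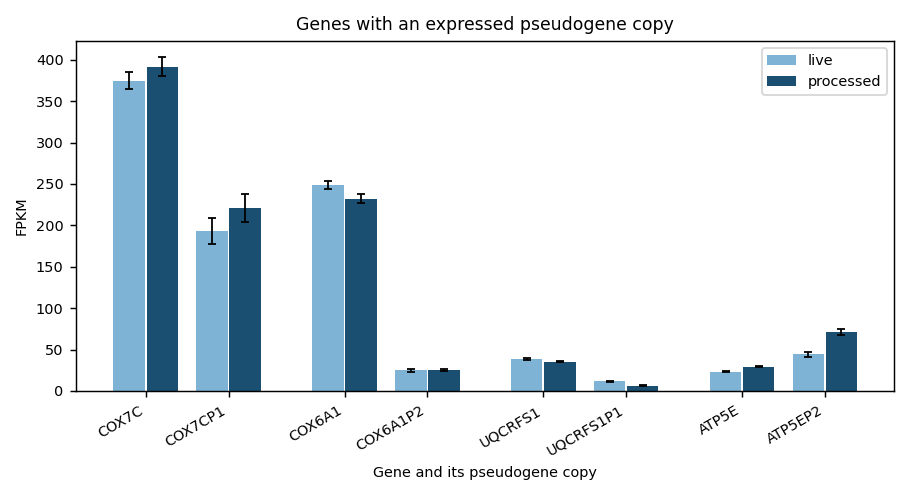
FPKM of 4 genes and of their pseudogene copies in live (light) and processed (dark) cells, with the authors' bounds as error bars and 1 library per bar. ATP5EP2 stands above ATP5E in both libraries, and COX7CP1 reaches 193 and 221 FPKM beside 375 and 391.7 FPKM for COX7C.

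Overlapping genes are a related limit, since nothing in the sources used here states that strand was used in counting. Of the 81 genes, 32 overlap another gene with at least 1 FPKM, among them 3 of the 7 past 1.5-fold. NDUFA3 overlaps TFPT over 4579 bp, and TFPT was at 11.3 FPKM in the live and 6.92 FPKM in the processed library, opposite in direction to NDUFA3. NDUFA6 overlaps C22orf32 over 5431 bp, which was at 37.9 and 32.3 FPKM, and NDUFS1 overlaps AC007383.4 over 899 bp, which was at 2.90 and 2.10 FPKM, and EEF1B2 over 19 bp, which was at 146 and 147 FPKM. NDUFS4, NDUFV3 and NDUFA4 overlap no such gene. The readthrough names NDUFC2-KCTD14 and ATP5J2-PTCD1 were below 0.5 FPKM in both libraries.

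Length and base composition were set beside the ratio. For the log2 ratio, Pearson's r and Spearman's rho were -0.0059 and 0.047 with the median length of coding transcripts (80 genes), and -0.021 and -0.017 with the GC content of the longest transcript (81 genes). Split by that length, the median log2 ratio was -0.08 over 9 genes under 500 nt. It was -0.06 over 49 genes from 500 to under 1000 nt, and 0.08 over 22 genes of 1000 nt or more. Under 500 nt, 8 of the 9 were below 0 (10094 of 17326 over all genes), and bounds overlapped for 7. Of the 22 longest, 10 (45.5%) had separate bounds on the higher side (background 28.1%) and 7 (31.8%) on the lower (background 43.7%). Each of these medians is smaller in size than the shift of about 0.10 from scaling by the median ratio. No trend with length was tested. With live FPKM, r and rho were 0.12 and -0.11, which differ in sign. These are across genes of 1 pair of libraries and carry no error of a repeated experiment.

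The genes were also compared in their promoters, which the name rule did not use. RefSeq windows of 250 bases before and 50 after the start (GRCh38.p14) were found for 67 of the 87 genes. Of these, 11 (16.4%) held the core CGCATGCG bound by NRF1, beside 4.23% of 11461 genes with at least 1 FPKM and 2.46% of all 27305 genes with a window. The ETS core CCGGAAG, a form of which GABP binds, was held by 29.9%, beside 21.0% and 12.2%, and the YY1 core AAGATGGCG by 11.9%, beside 4.35% and 2.14%. Both strands were searched, the ETS and YY1 words can overlap by the letters AAG, and all 3 were chosen because these factors are known regulators of respiratory genes. A match describes letters and is no evidence of binding. The 250 bases before the start are shown for the 3 genes with the highest live FPKM among those with CGCATGCG there, COX6A1 (chr12:120437863-120438112, plus strand), ATP5G2 (chr12:53676084-53676333, minus strand) and NDUFB4 (chr3:120596086-120596335, plus strand), with matches to the 3 words in capitals.
COX6A1: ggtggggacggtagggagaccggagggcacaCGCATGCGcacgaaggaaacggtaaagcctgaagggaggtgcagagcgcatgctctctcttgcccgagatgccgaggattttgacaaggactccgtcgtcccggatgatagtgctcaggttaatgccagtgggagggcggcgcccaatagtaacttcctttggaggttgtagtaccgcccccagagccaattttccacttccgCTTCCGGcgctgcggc
ATP5G2: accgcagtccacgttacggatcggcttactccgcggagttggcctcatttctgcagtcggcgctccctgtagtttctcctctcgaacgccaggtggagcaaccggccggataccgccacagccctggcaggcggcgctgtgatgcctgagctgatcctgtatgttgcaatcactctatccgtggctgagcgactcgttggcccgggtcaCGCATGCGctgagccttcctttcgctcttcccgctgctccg
NDUFB4: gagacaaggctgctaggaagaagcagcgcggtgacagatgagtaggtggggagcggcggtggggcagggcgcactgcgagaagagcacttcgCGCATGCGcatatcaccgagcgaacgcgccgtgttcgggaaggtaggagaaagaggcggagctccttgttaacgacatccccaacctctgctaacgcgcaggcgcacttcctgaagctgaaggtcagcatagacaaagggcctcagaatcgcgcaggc

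The expression of these 3 genes was 248 and 232 FPKM for COX6A1, 230.0 and 211 FPKM for ATP5G2 and 118 and 99.7 FPKM for NDUFB4, in live and processed cells. NDUFA8, an accessory subunit of complex I that also holds the word, was at 23.0 and 24.9 FPKM.

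The mitochondrial genome encodes partners of these subunits, of which 12 were read from its own entries. MT-ATP8, a partner in complex V, was left out because the entry of that name in the files lies on chromosome 2, where it was listed at 0 in both libraries. In live cells the 7 mRNAs for complex I had a median of 2048 FPKM, the 3 for complex IV 4598 FPKM, MT-CYB for complex III 1989 FPKM and MT-ATP6 for complex V 3699 FPKM, all above every nuclear subunit. All 12 had a log2 ratio above 0, beside 7232 of 17326 over all genes. The median was 0.31 for complex I and 0.26 for complex IV, beside -0.009 and -0.10 for the nuclear genes of the same complexes. The difference between the nuclear and mitochondrial groups was not tested.

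Assembly factors, which help build the complexes and do not stay in them, were lower in level and more scattered than the subunits. Their median absolute log2 ratio was 0.359, beside 0.136 for the 81 genes and 0.341 for all genes. No set matched for level was compared, so scatter and level cannot be told apart. The 31 on the list had a median of 14.2 FPKM in the live and 16.6 FPKM in the processed library. Of them 12, or 38.7%, had a log2 ratio above 0.32 (background 21.9%) and 9, or 29.0%, one below -0.32 (background 30.2%). After scaling by the median ratio these counts were 12 and 5, with no background given under that scaling. For complex I, 8 of 10 had a ratio above 0 (7232 of 17326 over all genes) with a median of 0.40, including NDUFAF2 (9.02 and 17.0 FPKM, log2 ratio 0.84) and NDUFAF1 (5.02 and 7.73 FPKM, 0.54). For complex IV, 3 of 13 had a ratio above 0, beside 7232 of 17326 over all genes, and the median was -0.31. The lowest ratio was that of SURF1, at 20.1 FPKM (19.0 to 21.1) and 10.8 FPKM (10.1 to 11.5), -0.84, and the highest that of ATPAF2, which assembles the head of ATP synthase, at 9.15 FPKM (8.33 to 9.96) and 23.6 FPKM (21.9 to 25.3), 1.28. The mitochondrial ribosomal proteins, which translate the mitochondrial mRNAs, lay between the lists in scatter: over the 76 of 78 above 1 FPKM the median log2 ratio was -0.08, which turns to 0.02 after scaling by the median ratio, and the median absolute log2 ratio 0.248. They ranged from MRPS36, at 18.0 FPKM (15.7 to 20.3) and 6.53 FPKM (3.60 to 9.46) with a log2 ratio of -1.34, to MRPL30, at 1.82 FPKM (1.305 to 2.33) and 8.08 FPKM (6.22 to 9.93) with 1.69. Of the 78 entries, the 2 below 1 FPKM were MRPS16P, a pseudogene name, and a second entry of MRPL46, whose main entry was at 13.4 and 12.7 FPKM.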

How the data were processed

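RNA-seq was compared between 1 live and 1 processed sample of H1-derived Stage 6 cells. Per the labels and the study's methods, poly-A RNA was sequenced from both ends (80 nt each), STAR 2.2.0c placed the reads on GRCh37/hg19 with GENCODE gene models, and the authors deposited gene FPKM with bounds from Cufflinks 2.0.2. Cufflinks divides fragments of overlapping or similar transcripts by likelihood, so that their FPKM can trade off. Read counts are not in the files used here. The files hold no columns of other samples.

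Genes were joined by identifier, and log2 ratios used a pseudocount of 1 and a filter of at least 1 FPKM in either library. No test between conditions was possible. The members, gene lists and promoter words were chosen with earlier results of these data known. Every member could be named; values with bounds were given to the extremes of each complex, complex II, CYC1, paralogue families and genes past 1.5-fold, and to the extremes of the other lists. The step of 1 fragment used transcript length less 170 nt. Transcript lengths and sequences came from GENCODE release 44 on GRCh37 and promoters from RefSeq. Python 3.11.15, numpy 2.4.6, pandas 2.3.3, scipy 1.17.1 and Biopython 1.88 were used, and fold counting was tested on simulated data. The values of 1 complex I gene are not reported here, though counts and medians include it. Alternatives covered pseudocount, filter, status, scaling and member definition.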

Additional observations from a re-analysis of the deposited data

How the results depend on the processing

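The counts and medians over the 81 genes, with the exceptions below, stayed close under the other pseudocounts, filters, status, definition of subunits and scaling to the same sum of FPKM. Scaling by the median ratio moved those that turn on direction, to 15 genes above a log2 ratio of 0.32 and 5 below -0.32, and to 33 genes with separate bounds higher and 14 lower, because it raises every processed value by the same factor. It moves the shares over all genes too, and these are not given under it. The count past 2-fold lower was 1 in place of 2 without a pseudocount and with a filter of 10 FPKM, since COX4I2, listed at 0 in processed cells, then leaves the count. Over 1.5-fold, the 2 genes higher and 5 lower all stayed past it with a pseudocount of 0.1 or the same sum of FPKM. Without a pseudocount COX4I2 was lost, and with the median ratio NDUFV3 was lost and ATP5L gained. Adding expressed pseudogene copies, chosen after seeing the data, moved ATP5E, UQCRFS1, UQCRB and NDUFB1 beyond the span of their bounds. Such sums add values per length and are not sums of fragments. No paired analysis was possible because each condition has 1 library. No replicate could be left out for the same reason, and the bounds show only precision within a library.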

Other observations

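Regulators of mitochondrial biogenesis were lower in level than the subunits. Of 12 on the list, 10 reached 1 FPKM in either library, with a median of 11.6 FPKM in the live and 10.4 FPKM in the processed library, and 8 of the 10 had a log2 ratio below 0, beside 10094 of all 17326 genes. After scaling by the median ratio, run on this list after seeing the data, 6 of the 10 were below 0, and NRF1 and ESRRA had turned above it. The share of all genes below 0 is not given under that scaling. TFAM, which packages mitochondrial DNA and is needed for its transcription, had the lowest ratio, at 20.9 FPKM (20.1 to 21.8) in live and 10.6 FPKM (10.1 to 11.1) in processed cells, -0.92. POLRMT, the mitochondrial RNA polymerase, had the highest, at 23.8 FPKM (22.6 to 24.96) and 29.99 FPKM (28.2 to 31.8), 0.32. NRF1, which binds respiratory gene promoters, was at 11.6 and 11.1 FPKM and GABPA, the DNA-binding subunit of GABP, at 7.09 and 5.16 FPKM. The coactivators PPARGC1A (0.272 and 0.011 FPKM) and PPARGC1B (0.091 FPKM and less than 0.001 FPKM) were below the filter.

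CYCS, the cytochrome c that carries electrons from complex III to complex IV, was at 36.6 FPKM (35.0 to 38.1) in live and 26.0 FPKM (24.9 to 27.1) in processed cells, a log2 ratio of -0.48, whereas ATPIF1, the inhibitor of ATP synthase, was at 112 and 127 FPKM, 0.18.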
